A study of Mus musculus with 14 samples.

Results

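The genes described here are interferon-induced GTPases of the guanylate-binding protein (Gbp) and immunity-related GTPase (Irg) families, measured in whole lungs of 6-day-old C57BL/6J mice that lacked ataxin-1-like (Atxn1l, written Atxn1L in the labels) or ataxin-1 (Atxn1). They were picked by name: Gbp2, Gbp3, Gbp4, Gbp6, Gbp7, Gbp8, Igtp, Irgm1, Irgm2 and Iigp1. Of these 10 genes, 9 had a probe set among the 21212 of the array, and Irgm2 was not analysed here. The choice was made with the knockout and wild-type levels already known, so those levels and their differences are given as a description and not as a test. Lungs of all genotypes carried high levels of the alveolar type 2 marker Sftpc (surfactant protein C), which lay between 13.87 and 14.42 on every array.

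The arrays formed 4 groups of mice born to heterozygous parents. There were 4 Atxn1l-/- lungs with 4 wild-type lungs, and 3 Atxn1-/- lungs with 3 wild-type lungs. Each knockout was collected with a wild-type partner. The arrays of partners, the litters, the sexes and the construction of the deleted alleles are not given in the sources used here. Total RNA was hybridised to Affymetrix mouse Gene ST 1.0 arrays, and values are log2 levels after RMA, a normalization that the authors ran on the 8 arrays of the Atxn1l mice and on the 6 arrays of the Atxn1 mice separately. A difference of 1 on this scale is a doubling. Levels are therefore set side by side only within a set and only for the same gene. The Atxn1l probe set itself was at 6.68 to 7.05 in the Atxn1l knockouts and 9.29 to 9.59 in their wild types, and no array went against its label. The Atxn1 probe set read 11.02 ± 0.02 (SD, n = 3) in Atxn1 knockouts and 11.01 ± 0.12 (SD, n = 3) in wild types, so it does not check the Atxn1 labels, since it may lie outside the deleted part.

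Both GTPase families are made in small amounts by resting cells and in large amounts after interferon-gamma and, for many members, type I interferon. Their proteins assemble on the vacuoles in which bacteria and parasites live and on cytosolic bacteria, help to break these open, and so expose microbial products to inflammasomes. Among the Irg proteins, Irgm1, Irgm2 and Igtp are regulators that sit on the cell's own membranes and hold effectors such as Iigp1 inactive there, so that the effectors load onto foreign vacuoles. Ataxin-1 and ataxin-1-like bind Capicua, a DNA-binding repressor, and the knockouts ask what each protein does in the early postnatal lung.

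The promoters of the 10 genes, Irgm2 included although it has no probe set, were read for letters bound by factors downstream of interferons. Promoters came from RefSeq (build GRCm38.p6), which held 7 transcription starts of 6 of the 10 genes. Gbp4, Gbp6, Gbp8 and Iigp1 were not matched. The last 120 bases before the start are printed from 5′ to 3′ on the gene's strand. Capitals mark the core of the interferon-stimulated response element (GAAA, any 2 bases, GAAA, on either strand) and the gamma-activated site (TTCNNNGAA, which reads the same on both strands).
Gbp2, chr3:142620543-142620662, plus strand: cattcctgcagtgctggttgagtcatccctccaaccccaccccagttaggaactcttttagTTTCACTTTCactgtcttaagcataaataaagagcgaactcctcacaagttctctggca
Gbp3, chr3:142559924-142560043, plus strand: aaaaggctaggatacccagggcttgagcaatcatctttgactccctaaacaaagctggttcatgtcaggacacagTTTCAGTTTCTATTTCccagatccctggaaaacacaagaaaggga
Gbp7, chr3:142530216-142530335, plus strand: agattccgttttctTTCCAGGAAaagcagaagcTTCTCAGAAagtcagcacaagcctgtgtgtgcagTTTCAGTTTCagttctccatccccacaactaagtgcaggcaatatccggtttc
Igtp, chr11:58199436-58199555, plus strand: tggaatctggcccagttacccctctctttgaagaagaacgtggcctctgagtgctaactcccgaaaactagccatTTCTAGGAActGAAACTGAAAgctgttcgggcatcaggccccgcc
Irgm1, chr11:48871421-48871540, minus strand: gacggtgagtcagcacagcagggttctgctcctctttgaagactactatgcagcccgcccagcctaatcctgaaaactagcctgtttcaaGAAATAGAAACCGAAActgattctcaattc
Irgm2, chr11:58214857-58214976, plus strand: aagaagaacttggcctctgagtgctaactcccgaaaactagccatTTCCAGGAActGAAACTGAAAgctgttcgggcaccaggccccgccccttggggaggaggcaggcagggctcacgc

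All 6 genes held the response-element core close to a start. It began 53 bases before the start of Gbp7, 59 before Gbp2, 34 before Igtp and 64 before Irgm2. In Gbp3 it began at 45 and 39 bases and in Irgm1 at 30 and 24, as overlapping matches that share 4 letters. The second start of Gbp3 had none. Over windows of 250 bases before to 50 after the start, 6 of 7 member promoters held this core, against 3.44% of the 32851 promoters in the table. The gamma-activated site was in 3 of 7, those of Gbp7 (at 106 and 87 bases), Igtp (at 45) and Irgm2 (at 75), against 8.30% of all. It did not overlap the response-element core in any of them. The Capicua octamer TGAATGAA, searched on both strands, was in 0 of 7 and in 1.30% of all promoters. A match describes letters and is not evidence of binding. The windows of Igtp and Irgm2, neighbouring genes on chromosome 11, shared an unbroken run of 38 identical bases. It ended inside the gamma-activated site, where their letters differ, and the response-element core lay beyond it. No other pair of these 6 windows shared a run of more than 13.

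In the lungs, 8 of the 9 measured GTPases were at higher levels in all 4 Atxn1l knockouts than in 3 of the 4 wild types, and at least 2 of the 3 Atxn1 knockouts stood above all their wild types for every one of the 9. The shares of all 21212 probe sets that met either rule were not counted. Nothing is read from these counts, because the same levels chose the genes. In each set 1 lung went the other way. Wild-type replicate 4 of the Atxn1l set carried the members at knockout levels or above, and knockout replicate 1 of the Atxn1 set carried most of them at wild-type levels. The groups overlapped for all 9 genes in the Atxn1l set and for 7 in the Atxn1 set. For Iigp1 the Atxn1l groups overlapped without wild-type replicate 4 too. All results below are given with these arrays, and some also without them. Fewer cells of a type and less RNA per cell cannot be told apart in whole lung.

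**Figure D1:**
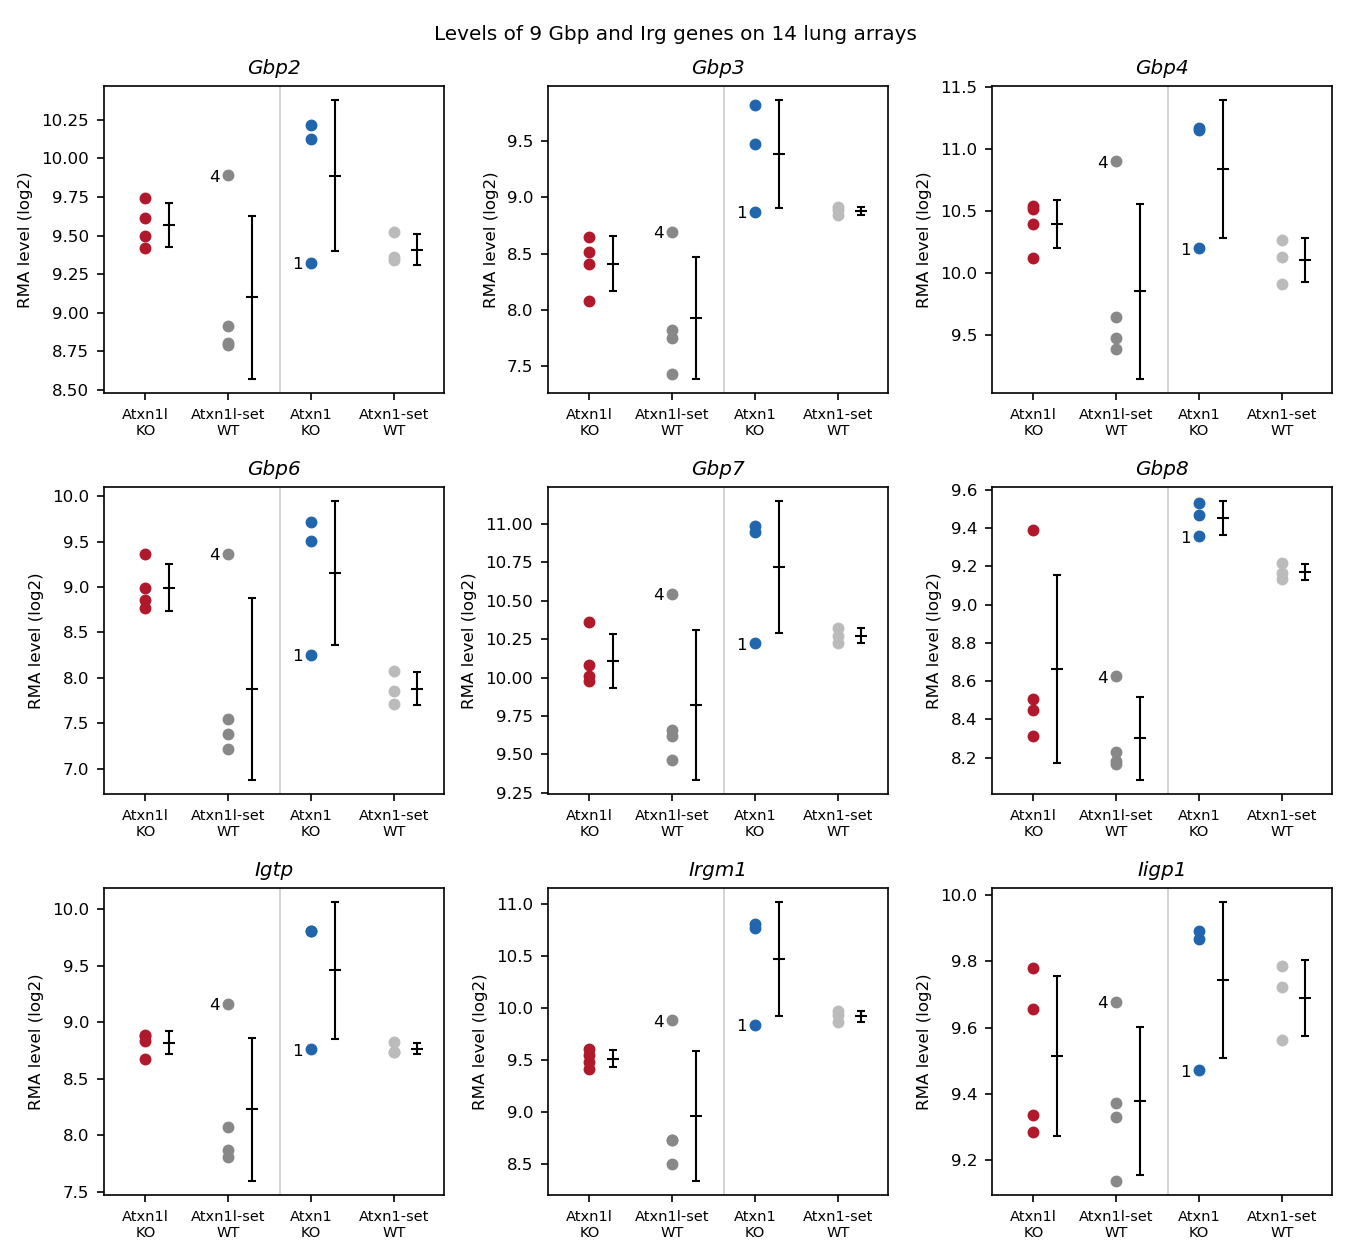
Log2 RMA level of each of the 9 measured genes in every lung, with the mean and SD of each group at its right. KO is knockout and WT wild type, the vertical line parts the separately normalized sets, 4 marks wild-type replicate 4 of the Atxn1l set and 1 marks knockout replicate 1 of the Atxn1 set. For Gbp6 the lung marked 4 was at 9.37, beside knockouts at 8.77 to 9.36, and the lung marked 1 was at 8.25, against 9.50 and 9.71 in the other knockouts.

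Gbp6, one of the guanylate-binding proteins of the chromosome 5 cluster and in mice a factor in resistance to intracellular bacteria, differed most between groups. In the Atxn1l set it was at 8.99, 8.85, 8.77 and 9.36 in knockout replicates 1 to 4 and at 7.54, 7.22, 7.38 and 9.37 in wild-type replicates 1 to 4. All 4 knockouts lay far above 3 of the wild types, and wild-type replicate 4 lay level with the highest knockout. Knockout minus wild type was 1.12 (SE 0.40), or 2.17-fold, and 1.61 (SE 0.14), or 3.06-fold, without wild-type replicate 4. Its levels in the Atxn1 set were 8.25, 9.50 and 9.71 in knockouts and 7.86, 8.08 and 7.71 in wild types. All knockouts lay above all wild types, replicate 1 by the least, and the difference was 1.27 (SE 0.36), or 2.42-fold.

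Gbp4 and Gbp8 lie in the same cluster. Gbp4 lay between 10.12 and 10.54 in Atxn1l knockouts and at 9.38, 9.47, 9.64 and 10.90 in wild types, so wild-type replicate 4 was the highest of the 8 lungs. On the Atxn1 arrays Gbp4 was at 10.20, 11.16 and 11.17 in knockouts and between 9.91 and 10.27 in wild types, with knockout replicate 1 inside the wild-type range. Its differences were 0.54 (SE 0.29) in the Atxn1l set and 0.74 (SE 0.26) in the Atxn1 set. Gbp8 followed another pattern. It was at 8.45, 8.51, 8.32 and 9.39 in Atxn1l knockouts and 8.17, 8.23, 8.18 and 8.62 in wild types. Knockout replicate 4 alone carried most of this difference, which was 0.36 (SE 0.21) with it and 0.12 without it. On the Atxn1 arrays Gbp8 was at 9.36, 9.53 and 9.47 against 9.13, 9.22 and 9.16, with no overlap and the smallest SE of the 9 genes, for a difference of 0.28 (SE 0.06). The genes of this cluster are near-identical in places, so a probe set can also read RNA of Gbp9, Gbp10 or Gbp11.

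Gbp2, Gbp3 and Gbp7 come from the cluster on chromosome 3. Gbp2, which in mice restricts Toxoplasma and helps the inflammasome to sense bacteria, was at 9.42, 9.61, 9.50 and 9.75 in Atxn1l knockouts and 8.81, 8.79, 8.91 and 9.89 in wild types. Its 3 lower wild types lay close together and wild-type replicate 4 stood above every knockout. Among the Atxn1 lungs Gbp2 was at 9.32, 10.12 and 10.21 in knockouts and 9.36, 9.34 and 9.53 in wild types, and knockout replicate 1 was the lowest of the 6 lungs. The differences were 0.47 (SE 0.22) and 0.48 (SE 0.22). Gbp3 was at 8.07 to 8.64 in Atxn1l knockouts and 7.43 to 8.70 in wild types, a difference of 0.48 (SE 0.23). The Atxn1 knockouts lay at 8.87 to 9.82 and their wild types at 8.84 to 8.91, a difference of 0.51 (SE 0.22). Gbp7 helps to bring the NADPH oxidase to bacterial vacuoles. It ranged from 9.98 to 10.36 in Atxn1l knockouts and from 9.46 to 10.55 in wild types, a difference of 0.29 (SE 0.21). Its range was 10.22 to 10.99 in Atxn1 knockouts and 10.22 to 10.32 in their wild types, a difference of 0.45 (SE 0.19). The Gbp3 and Gbp7 wild types of the Atxn1 set were among the tightest groups, with SDs of 0.03 and 0.05 (n = 3).

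Among the Irg genes, the regulators Igtp and Irgm1 followed the pattern of the Gbp genes and the effector Iigp1 did so less. Igtp was at 8.67, 8.84, 8.88 and 8.89 in Atxn1l knockouts and 7.81, 7.87, 8.07 and 9.16 in wild types. Irgm1, needed in mice for control of mycobacteria, was at 9.55, 9.49, 9.41 and 9.60 in knockouts and 8.73, 8.50, 8.73 and 9.88 in wild types. For both genes the knockouts were tightly grouped, between 3 low wild types and 1 higher one. The differences were 0.59 (SE 0.25) for Igtp and 0.55 (SE 0.25) for Irgm1, and without wild-type replicate 4 they were 0.90 (SE 0.08) and 0.86 (SE 0.08). In the Atxn1 set Igtp was at 8.76, 9.81 and 9.81 in knockouts and 8.74, 8.74 and 8.82 in wild types, a difference of 0.69 (SE 0.27). Irgm1 was at 9.84, 10.81 and 10.77 against 9.86, 9.97 and 9.93, a difference of 0.55 (SE 0.25). Knockout replicates 2 and 3 stood well above every wild type for both genes, and replicate 1 did not stand apart from the wild types.

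Iigp1, the effector that coats Toxoplasma and Chlamydia vacuoles, was at 9.66, 9.33, 9.28 and 9.78 in Atxn1l knockouts and 9.14, 9.37, 9.33 and 9.68 in wild types. Knockout replicates 1 and 4 were high together with wild-type replicate 4, and the other knockouts lay among the wild types. On the Atxn1 arrays Iigp1 was at 9.47, 9.87 and 9.89 in knockouts and 9.56, 9.72 and 9.79 in wild types, with knockout replicate 1 the lowest lung. The first of its differences, 0.13 (SE 0.13), was about the size of its error. The second, 0.05 (SE 0.12), was smaller than its error and turned to -0.037 with the Xist level as a covariate.

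Across the 9 genes the median difference was 0.48 in the Atxn1l set and 0.51 in the Atxn1 set. All 9 differences were above 0 in both sets, as were those of 51.3% and 47.3% of all 21212 probe sets, and this count follows from how the genes were chosen. With limma 0 of 9 passed an adjusted p under 0.05 in the Atxn1l set (0.0424% of all probe sets did) and 0 of 9 in the Atxn1 set (0% of all). At an unadjusted p under 0.05, 2 of 9 were higher in the Atxn1l set (4.54% of all) and 4 of 9 in the Atxn1 set (0.75% of all). Every knockout lay above every wild type for 0 of 9 in the Atxn1l set (2.76% of all) and for Gbp6 and Gbp8 in the Atxn1 set (2.85% of all). Nothing is read from these shares, because the same levels chose the genes.

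The Atxn1l counts turned on 1 lung. Without wild-type replicate 4 the median difference was 0.74 and 5 of 9 genes passed, Gbp2, Gbp4, Gbp6, Igtp and Irgm1, beside 0.118% of all probe sets. At an unadjusted p under 0.05, 7 of 9 were higher without it (3.64% of all). Leaving out any of the other 7 lungs, 0 of 9 passed, beside 2 to 19 of all 21212 probe sets. In these fits 0 to 2 of 9 were higher at an unadjusted p under 0.05, beside 767 to 1137 of all probe sets. Without knockout replicate 1 of the Atxn1 set the median was 0.77 and Gbp6 differed by 1.73 (SE 0.13), with 0 of 9 past the threshold (0% of all) and 8 of 9 at an unadjusted p under 0.05 (0.773% of all probe sets were higher at that level). These lungs were noticed for their levels of these genes, so the values without them are no estimate independent of that choice.

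**Figure D2:**
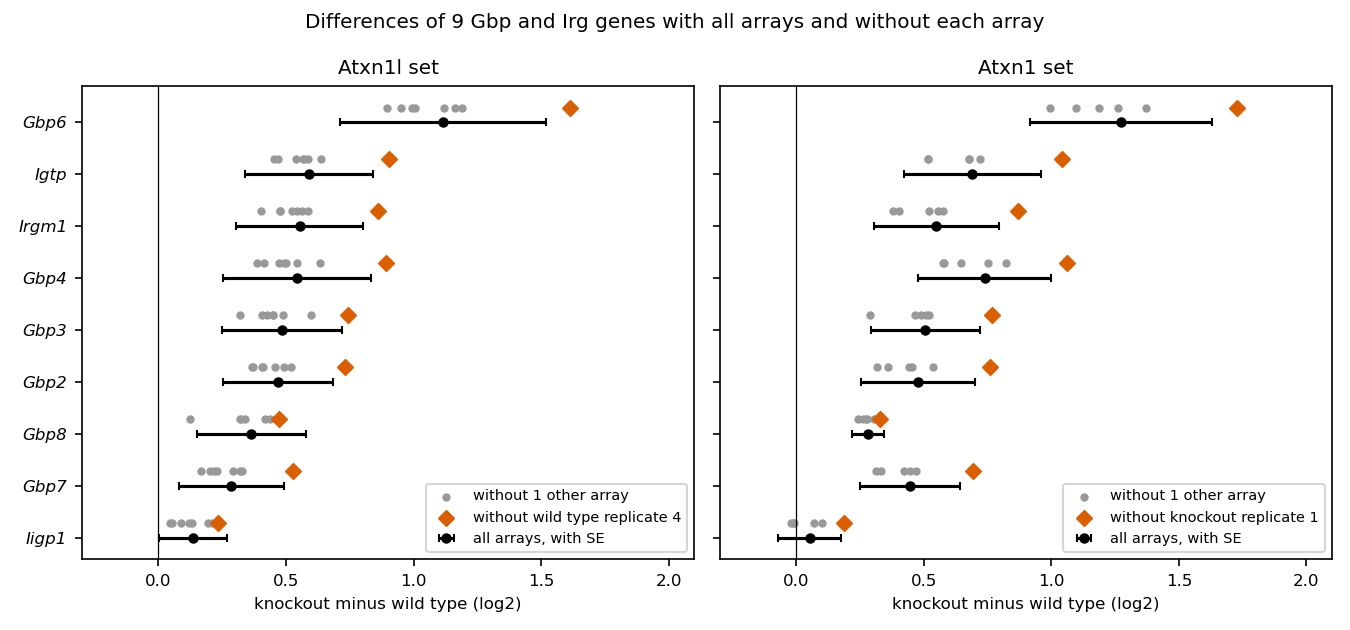
Knockout minus wild type (log2) of each gene with all arrays (black, with its SE) and after leaving out each array in turn (grey, and orange diamonds for the array named in the legend). For Gbp6 the orange diamonds stand at 1.61 in the Atxn1l set and 1.73 in the Atxn1 set, right of every other point of their panel.

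Between the knockouts the sizes were close. The Atxn1l difference minus the Atxn1 difference, fitted with limma on all 14 arrays, ran from -0.20 for Gbp4 to 0.08 for Iigp1 and Gbp8. Its 95% interval was wide, from -1.50 to 1.18 for Gbp6 and from -0.36 to 0.52 for Iigp1. No member passed (2 of 21212 probe sets did, 0.00943%), and 0 of 9 were at an unadjusted p under 0.05 (3.24% of all were). Intervals of this width do not show that the knockouts act alike.

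**Figure D3:**
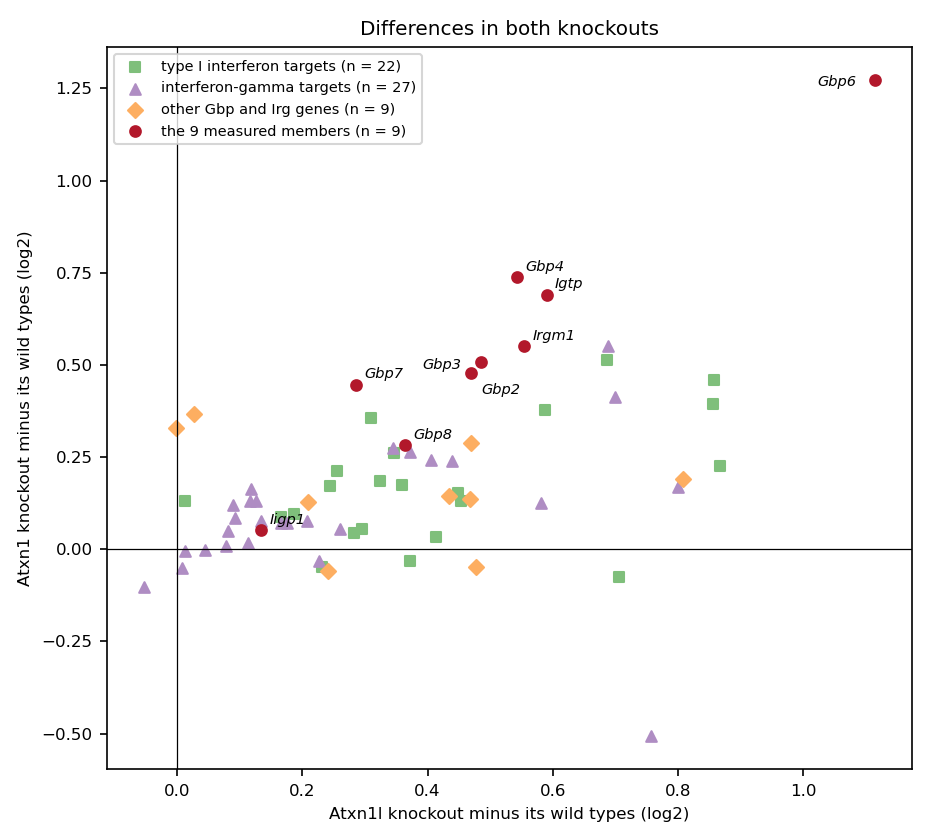
Difference in the Atxn1l set (horizontal) and in the Atxn1 set (vertical), log2, of the 9 measured genes (red), the other Gbp and Irg genes (orange) and the listed targets of interferon-gamma and type I interferon. Gbp6 lies farthest out at 1.12 and 1.27, and Iigp1 nearest to 0 among the red points.

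The 9 genes varied from lung to lung, and 1 lung in each set carried much of what they shared. Their median excess over the median wild type of the set was 0.56, 0.75, 0.64 and 0.89 in Atxn1l knockouts 1 to 4 and 1.03 in wild-type replicate 4, and -0.02, 0.76 and 0.85 in Atxn1 knockouts 1 to 3. Wild-type replicate 4 was the highest of the 8 lungs for 7 of 9 genes, all but Gbp8 and Iigp1. Over the 36 pairs of these genes, the median Pearson r of deviations from the genotype mean was 0.87 on the 8 arrays of the Atxn1l set and 0.44 on the 7 without wild-type replicate 4. On the Atxn1 arrays it was 0.93 over all 6 and -0.028, from -0.99 to 0.94, on the 5 without knockout replicate 1, too few arrays to read a coefficient from. These coefficients describe probe sets that share the same arrays.

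Closest to the members' mean level by Pearson r in the Atxn1l set (8 arrays) were Parp14 (0.988), Ifi47 (0.987), Gbp5 (0.981), Sfn (0.969) and Serpina3f (0.963). Ifi47 is itself an Irg gene, known as Irgd, and lies beside Irgm1 on chromosome 11. In the Atxn1 set (6 arrays) they were Tap1 (0.994), the peptide transporter of antigen presentation, 4930515G01Rik (0.988), Mmp1a (0.985), Bsdc1 (0.983) and Fam189a2 (0.983). With deviations from the genotype mean, the nearest were Ifi47 (0.989), Parp14 (0.985), Serpina3f (0.982), Gm12185 (0.981) and Gbp9 (0.981) in the Atxn1l set. The nearest in the Atxn1 set were Zfand2b (0.996), Cyp1a2 (0.996), Nfkbil1 (0.994), Sytl5 (0.993) and Eral1 (0.992). With 6 to 8 arrays among 21212 probe sets, such coefficients only rank genes.

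Relatives outside the chosen genes shared the pattern in part. Of 5 other Gbp genes, 4 had higher means in each knockout, with median differences of 0.21 in the Atxn1l set and 0.29 in the Atxn1 set. None passed the threshold in either set, and 2 were at an unadjusted p under 0.05 in each. Gbp5, which promotes inflammasome assembly, was at 6.85, 6.82, 6.87 and 7.11 in Atxn1l knockouts and 6.21, 6.06, 6.38 and 7.11 in wild types. The wild-type value of 7.11 is that of replicate 4, as for the members. Its differences were 0.47 (SE 0.19) and 0.29 (SE 0.21), and it passed without that lung (0.69, SE 0.09, limma adjusted p = 0.0408). Gbp9 and Gbp10 differed by 0.03 and -0.0022 in the Atxn1l set and by 0.37 and 0.33 in the Atxn1 set. Without wild-type replicate 4 of the Atxn1l set they differed by 0.20 (SE 0.06) and 0.09 (SE 0.16). Gbp11 differed by 0.21 and 0.13, and Gbp2b by 0.24 and -0.06.

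Of 11 other genes listed with the Irg family, 4 were measured. The list holds Gvin1, which is not an Irg gene and was not measured, and does not hold Ifi47. All 4 had higher means in Atxn1l knockouts (median 0.47) and 3 had higher means in Atxn1 knockouts (median 0.14). None passed in either set, with 3 and 1 at an unadjusted p under 0.05. Gm12250, which encodes the effector Irgb10 that attacks bacterial membranes, was at 7.87, 7.48, 7.56 and 8.30 in Atxn1l knockouts and 6.72, 7.10, 6.71 and 7.45 in wild types. It was the one measured relative whose 4 Atxn1l knockouts all lay above all wild types (2.76% of all probe sets did so). Wild-type replicate 4 came close to the lowest of these knockouts. The difference of Gm12250 was 0.81 (SE 0.20, limma adjusted p = 0.332) in the Atxn1l set and 0.19 (SE 0.16) in the Atxn1 set. In the Atxn1 set all knockouts lay above all wild types for Gbp10 and Gm5431 (2.85% of all probe sets) and not for Gm12250. Gm5431 differed by 0.47 and 0.14, Gm4841 by 0.48 and -0.05, and Gm4951 by 0.43 and 0.15. The 5 relatives not known as interferon-induced (atlastins and other constitutive GTPases) had medians of -0.04 and 0.03. The 20 measured genes that flank the members' clusters had medians of 0.06 and 0.03 and none passed in either set. Ifi47, itself an Irg gene, was the highest of them in both, at 0.51 and 0.65, so these flanking genes do not all lie outside the family.

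Of the ligands and their inducers, 14 were measured and 0 passed, with median differences of 0.02 and -0.01 and no gene at an unadjusted p under 0.05 in either set. Ifng, the gene of interferon-gamma, chosen for naming after its values were seen, lay between 7.16 and 7.37 on the 8 arrays of the Atxn1l set, lowest in wild-type replicate 4. Whether the ligand genes were read above background was not tested, so their small differences do not show that interferons were unchanged. Of 6 receptor chains, 0 passed and 0 were at an unadjusted p under 0.05. Ifngr1 and Ifngr2, which bind interferon-gamma, differed by 0.06 and 0.07 in the Atxn1l set and by -0.02 and 0.0072 in the Atxn1 set. The type I receptor chains Ifnar1 and Ifnar2 differed by -0.03 and 0.08, and by 0.02 and -0.0031. Ifnlr1 and Il10rb, which form the type III receptor, differed by 0.01 and -0.04, and by 0.02 and -0.0040.

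Of 13 signalling genes, 0 passed in either set and 6 were at an unadjusted p under 0.05 in the Atxn1l set, all higher, against 1 in the Atxn1 set. Irf1, which activates Gbp genes, differed by 0.28 (SE 0.16) and 0.33 (SE 0.17), with wild-type replicate 4 at 10.11 above all Atxn1l knockouts. Irf7, Irf9 and Stat2, which act after type I interferon, differed by 0.82, 0.43 and 0.33 in the Atxn1l set and by 0.20, 0.18 and 0.12 in the Atxn1 set. Irf8 differed by 0.28 and 0.09, Ciita by 0.20 and 0.09, and Batf2 by 0.10 and 0.10. The kinases Jak1, Jak2 and Tyk2 and the factors Irf2 and Irf3 lay between -0.06 and 0.06 in both sets.

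Of 27 other interferon-gamma targets, 26 had higher means in Atxn1l knockouts (median 0.17) and 21 in Atxn1 knockouts (median 0.08). None passed, with 14 and 5 higher at an unadjusted p under 0.05. Tap1 differed by 0.69 and 0.55, Cxcl9 by 0.80 and 0.17, Cxcl10 by 0.58 and 0.13, and Serpina3g by 0.76 and -0.51. Of 22 type I interferon targets, 22 and 19 had higher means (medians 0.35 and 0.16) and none passed, with 15 and 3 at an unadjusted p under 0.05. Oas2 differed by 0.71 and -0.08, Mx2 by 0.41 and 0.03, Oas1a by 0.28 and 0.04, and Oas3 by 0.30 and 0.06. In wild-type replicate 4 the mean of the type I targets was 0.40 and that of the interferon-gamma targets 0.13 above the median wild type, against 1.06 for the GTPases. Without that lung 2 type I and 1 interferon-gamma targets passed, beside 0.118% of all probe sets. At an unadjusted p under 0.05, 21 and 14 were higher (3.64% of all). Without Atxn1 knockout replicate 1 none passed, and 11 and 10 were higher at that level (0.773% of all). Both lungs were noticed for their GTPase levels, so these counts are no independent estimate. The lists were drawn up with earlier results of these arrays known.

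Of 16 partners of the GTPases at vacuoles and inflammasomes, none passed in either set, with 3 and 1 higher at an unadjusted p under 0.05. Rnf213 differed by 0.49 and 0.17, Casp1 by 0.39 and -0.08, Casp4 by 0.46 and -0.13, and Gabarapl2 by -0.17 and 0.07. Of 6 inhibitors of interferon signalling, none passed, with 4 and 1 at an unadjusted p under 0.05. Usp18 differed by 0.37 and 0.32, Ptpn6 by 0.25 and 0.0059, Socs3 by 0.22 and -0.25, and Socs1 by 0.12 and 0.04.

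**Figure D4:**
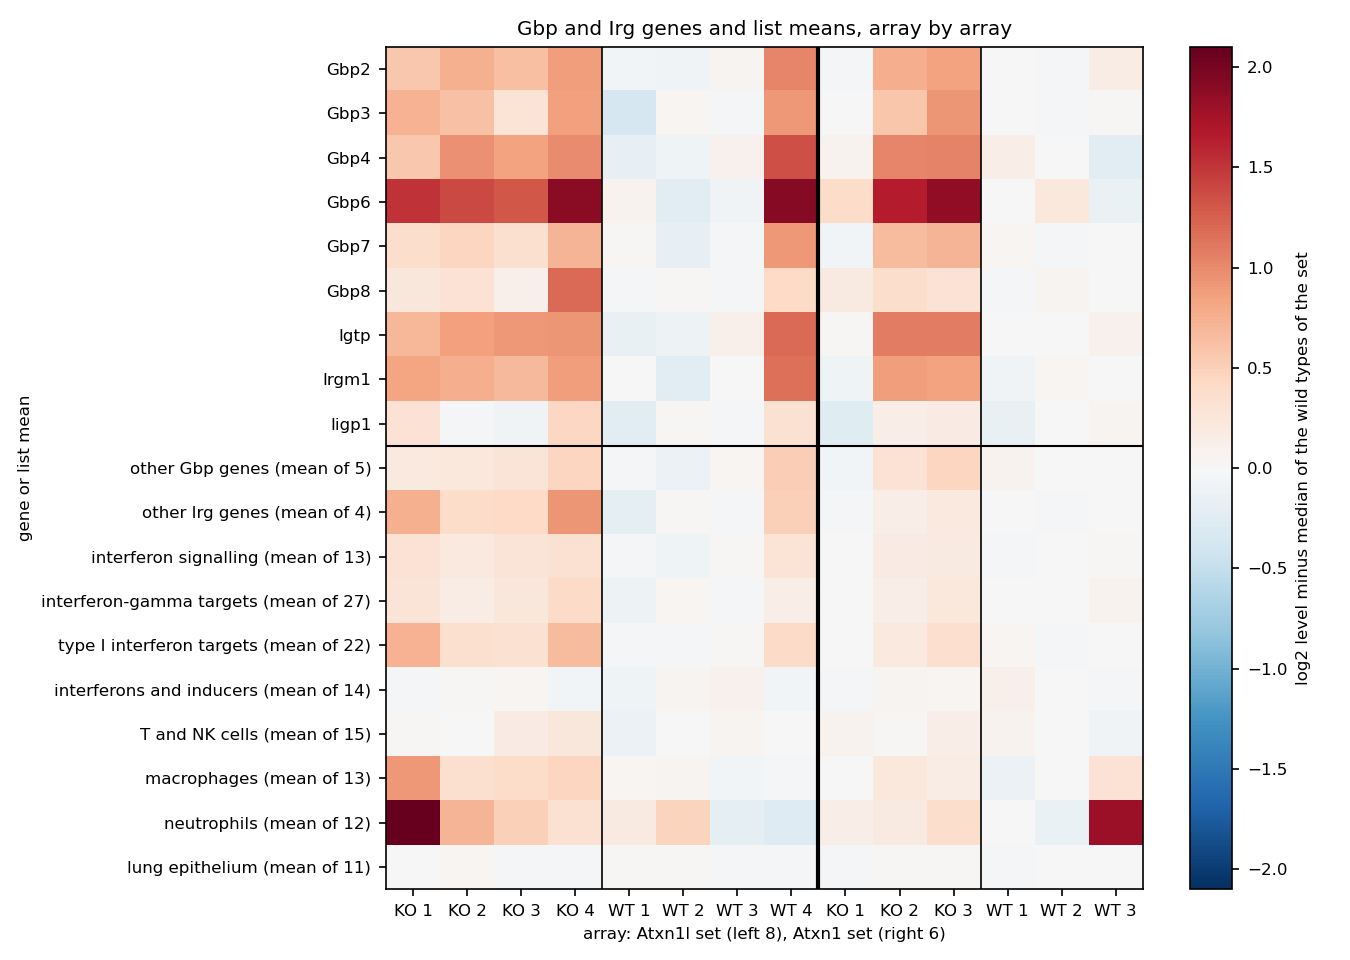
Each gene (upper rows) and each list mean (lower rows) on every array, as log2 level minus the median of the wild types of its set. Apart from Iigp1 and Gbp8, which are paler in most Atxn1l knockouts, the genes are light red to red in Atxn1l knockouts and in wild-type replicate 4 (WT 4). In Atxn1 knockout replicate 1 (KO 1) the highest excess is 0.39, that of Gbp6. The neutrophil row is darkest in Atxn1l knockout replicate 1 at 2.09 and Atxn1 wild-type replicate 3 at 1.80, where the GTPases did not peak.

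Markers of the cells that can carry these GTPases did not all follow them. The mean of 13 macrophage genes, above the median wild type, was 0.91, 0.34, 0.39 and 0.45 in Atxn1l knockouts and -0.04 in wild-type replicate 4. The group ranges of this mean level were 9.07 to 9.64 in knockouts and 8.67 to 8.78 in wild types. In the Atxn1l set 2 of the 13 passed, Msr1 (0.69, limma adjusted p = 0.0197) and Chil3 (1.46, limma adjusted p = 0.0210), and 11 were higher at an unadjusted p under 0.05. In the Atxn1 set none passed and the ranges overlapped, at 9.49 to 9.73 and 9.39 to 9.81. The part of macrophages in the Atxn1l difference of the GTPases was not tested. In wild-type replicate 4 the GTPases were high with this list at wild-type level.

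The mean of 15 T and NK cell genes stayed between -0.12 and 0.24 of the median wild type on all 14 arrays, at -0.01 in wild-type replicate 4. Its range was 7.31 to 7.56 in Atxn1l knockouts and 7.20 to 7.38 in wild types, and 0 of 15 passed, with 5 higher at an unadjusted p under 0.05. The neutrophil list also differed with the Atxn1l knockout: 12 of 12 genes had higher means (median 0.99), 0 passed and 6 were at an unadjusted p under 0.05. Among Atxn1 lungs 0 of 12 had higher means in knockouts (median -0.33), with 0 passing and 0 at that level. Above the median wild type, the mean of the 12 was 0.71, 0.50 and 0.33 in Atxn1l knockouts 2 to 4, and its part in the GTPase levels was not tested. It was highest in Atxn1l knockout replicate 1 (2.09) and Atxn1 wild-type replicate 3 (1.80). The GTPase mean in that wild type was 0.00 above the median wild type. In wild-type replicate 4 of the Atxn1l set the neutrophil mean was -0.26.

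Xist, the RNA of the inactive X chromosome, split the lungs. It lay between 12.97 and 13.29 in Atxn1l knockouts 2 to 4, wild types 3 and 4 of that set, Atxn1 knockouts 2 and 3 and wild type 3 of that set, and between 6.32 and 7.04 in the other 6 lungs. In the Atxn1 set the lung with wild-type-like GTPase levels was thus the only knockout with low Xist, while wild type 3, with high Xist, had GTPases at the level of the other wild types. In the Atxn1l set knockout 1, with low Xist, had high GTPases. Wild types 3 and 4 of that set, both with high Xist, had GTPase means 0.05 and 1.06 above the median wild type. Beyond a fit with Xist as a covariate, the part of sex in the GTPase levels was not tested. With the Xist level as a covariate, Gbp6 differed by 0.95 (SE 0.40) and 1.09 (SE 0.34), and the medians were 0.36 and 0.37. Alb, the gene of albumin, chosen after its values were seen, was at 9.43 in wild-type replicate 4 and between 7.10 and 7.38 on the other 7 arrays of the set. The mean of 5 liver genes, Alb among them, was 0.54 above the median wild type there, and its part in the GTPase levels was not tested.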

How the data were processed

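Per the labels' protocols, total RNA from each of 14 lungs was hybridised to 1 array. The deposited values are log2 levels that the authors made with RMA, separately for 8 and 6 arrays, per the series' design text. Probe sets carry Entrez gene numbers, and the submitters' processing notes also name limma, without a version. Of 21212 probe sets, 18786 had 1 symbol in the platform table, 6 had several and 2420 had none. Among listed genes, 14 (Rnf213 among them) were named through RefSeq's gene number. Of 217 listed genes beside the members, 207 were measured.

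Differences were fitted here with limma 3.58.1 in R 4.3.3 (lmFit, eBayes) over all probe sets, for each set and, for the difference between knockouts, for 4 group means on 14 arrays. Adjusted p-values are Benjamini-Hochberg, two-sided, over 21212 probe sets, called under 0.05. The fit was tested on simulated data. Samples were grouped by their labels, with no covariate. P-values measure the spread between these lungs, and the number of arrays limits the precision. The members and gene lists were chosen with earlier results of these data known. Named genes are the members, Atxn1, Atxn1l, all measured relatives, receptors and signalling genes (of which 1 is not reported here), up to 4 genes of smallest Atxn1l p from each other list, and the 5 nearest by r. Sftpc, Xist, Ifng and Alb, and the genes called without wild-type replicate 4, were named after their values were seen. Alternatives were a replicate block, eBayes with trend, weights per array, leaving out the dimmest probe sets, quantile normalization of both sets at once, centring on medians, cyclic loess, Xist as a covariate, an adjusted p under 0.1 and leaving out each array.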

Additional observations from a re-analysis of the deposited data

Results flagged for a closer look

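Of 36 groups of 4 lungs examined for the GTPases and their relatives, 6 held 1 lung far from the other 3 by Dixon's ratio (critical value 0.829), where chance gives about 1 in 20. These genes share arrays, so the 36 groups are not independent. In 5 the lung was wild-type replicate 4 of the Atxn1l set, high for Gbp2 (9.89), Gbp6 (9.37), Gbp8 (8.62), Irgm1 (9.88) and Gbp9 (9.88). The remaining one was Gbp2b in Atxn1l knockout replicate 1, which was low at 6.17. The members were chosen with these levels known, and the share over all probe sets was not counted. Nothing is therefore read from the number of groups found.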

How the results depend on the processing

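Over all 21212 probe sets, 9 passed in the Atxn1l set (5 higher, 4 lower), 2 with the replicate block and 2 to 25 with 1 array left out. With cyclic loess 9 passed, 6 higher and 3 lower, and with eBayes trend 9, 4 higher and 5 lower; which genes they share was not counted. In the Atxn1 set 0 passed (258 at an unadjusted p under 0.05) and 1 with array weights. For the difference between knockouts 2 passed, 1 with the replicate block, 4 with array weights and 1 to 2 with 1 array left out. The causes were not tested. Whether equal replicate numbers mark partners was not settled, because r of same-numbered and other-numbered deviations overlapped. Among Atxn1l lungs and their wild types, r was 0.04 to 0.38 for the same number and -0.24 to 0.25 for other numbers. The own number was best for 2 of 4 knockouts there. Among Atxn1 lungs and their wild types the ranges were -0.42 to 0.42 and -0.37 to 0.37, and the own number was best for 1 of 3 knockouts. With the block 7 and 8 of the 9 members were higher at an unadjusted p under 0.05, against 2 and 4 without it. With eBayes trend 0 and 6 were. Of all 21212 probe sets, 1176 and 140 were higher at that level with the block. Without it 964 and 159 were, and with eBayes trend 963 and 196. No member passed with the block or with the trend. The members' median differences stayed above 0 under every alternative, between 0.36 and 0.74 (Atxn1l) and 0.32 and 0.77 (Atxn1). Iigp1 turned sign in the Atxn1 set with array weights (-0.039), with Xist as a covariate (-0.037) and without Atxn1 knockout replicate 2 (-0.0090), knockout replicate 3 (-0.022) or wild-type replicate 1 (-0.011), in a range of -0.022 to 0.19 with 1 array left out. No other member turned sign in either set.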

Other observations

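Without wild-type replicate 4 of the Atxn1l set, 25 of 21212 probe sets passed an adjusted p under 0.05 with limma, 20 of them higher in knockouts. That lung was noticed for its GTPase levels, so calls of genes that vary with them are not independent of that choice. Beside 5 of the GTPases and Gbp5, the higher listed genes included Tap1 (0.89, SE 0.09), Rtp4 (1.16, SE 0.16), Zbp1 (0.57, SE 0.07) and Rnf213 (0.60, SE 0.08), and the macrophage genes Msr1 (0.73, SE 0.08) and Chil3 (1.41, SE 0.18). Tap1 moves peptides for antigen presentation, Zbp1 senses Z-form nucleic acids, and Rnf213 is a ubiquitin ligase that coats bacteria. Of these, Msr1 and Chil3 also passed with all 8 arrays, and Cd209a was lower in both fits, at -0.58 (SE 0.07) with all arrays and -0.52 (SE 0.06) without that lung.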
